A study of Mus musculus with 29 samples.

Results

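The 10 Frizzled receptor genes, Fzd1 to Fzd10, were followed in RNA-seq and H3K27me3 ChIP-seq data of the mouse cortex at E17.5, late in embryonic development. They were chosen by name from the 50238 genes listed in either of the RNA experiments, and all 10 were listed in both and passed the filter on low counts in both. The first RNA experiment held libraries of untreated C57BL/6J embryos, 4 of controls (C, replicates 1 to 4) and 3 of double conditional knockouts (dcKO, labelled M, replicates 2 to 4). The second held 4 libraries of wild type (WT) with vehicle, 4 of dcKO with vehicle and 4 of dcKO with a Wnt inhibitor. For H3K27me3, a histone mark laid down by Polycomb complexes at silent genes, there were 4 control (C) and 4 dcKO (K) libraries, with 1 pooled input per genotype. In dcKO embryos the floxed genes of the chromatin remodelling subunits BAF155 (Smarcc1) and BAF170 (Smarcc2) are deleted by hGFAP-Cre, which acts first in the medial pallium and later in the dorsal and lateral pallium, so the dissected tissue also holds cells that keep both genes. According to the methods of the study, the inhibitor was ICG-001, injected daily into the pregnant mother from E11.5. The genotype field of the untreated and H3K27me3 samples names the knockout for the controls too, so their groups were read from the letters C, M and K in the sample titles.

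Frizzled proteins are membrane receptors that bind lipid-modified Wnt ligands through a cysteine-rich domain outside the cell. Together with the co-receptors LRP5 and LRP6 they recruit Dishevelled and stabilise β-catenin, which turns on target genes with TCF/LEF factors, and some members also act without β-catenin in planar cell polarity and axon growth. In the developing pallium, Wnt signals from the cortical hem support progenitor proliferation and hippocampal formation, and ICG-001 blocks the binding of β-catenin to its coactivator CBP. The question the comparisons address is how the receptor genes behaved when the BAF complex was removed and when Wnt signalling was then inhibited.

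Sequence upstream of 3 of the genes is shown because these genes mark the extremes of the data. Fzd5 had the largest difference between genotypes and lay under H3K27me3, Fzd10 lay at the middle of the widest H3K27me3 peaks, and Fzd1 had the highest RNA level with almost no mark. All are from the GRCm38.p6 (mm10) assembly and are written 5′ to 3′ on the strand of the gene, with CG dinucleotides in capitals. The Fzd5 stretch (chr1:64737752-64738000, minus strand) ends at the base before the GENCODE start. The Fzd1 stretch (chr5:4758217-4758466, minus strand) ends at the base before the RefSeq start. That start lies upstream of the GENCODE start at 4758035, so this stretch is not placed like the other stretches. The Fzd10 stretch (chr5:128600581-128600843, plus strand) is the part before the GENCODE start of the 436 bp covered by a peak in 7 libraries.
Fzd5: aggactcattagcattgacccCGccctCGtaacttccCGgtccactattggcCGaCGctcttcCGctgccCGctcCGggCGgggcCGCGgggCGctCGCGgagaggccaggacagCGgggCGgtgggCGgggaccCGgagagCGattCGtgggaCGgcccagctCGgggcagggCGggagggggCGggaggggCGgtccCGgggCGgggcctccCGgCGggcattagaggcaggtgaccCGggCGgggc
Fzd1: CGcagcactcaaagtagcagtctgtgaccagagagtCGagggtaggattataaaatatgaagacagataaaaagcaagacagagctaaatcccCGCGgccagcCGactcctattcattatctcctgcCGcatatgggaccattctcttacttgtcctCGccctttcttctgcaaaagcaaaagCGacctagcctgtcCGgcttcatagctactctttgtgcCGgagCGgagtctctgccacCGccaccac
Fzd10: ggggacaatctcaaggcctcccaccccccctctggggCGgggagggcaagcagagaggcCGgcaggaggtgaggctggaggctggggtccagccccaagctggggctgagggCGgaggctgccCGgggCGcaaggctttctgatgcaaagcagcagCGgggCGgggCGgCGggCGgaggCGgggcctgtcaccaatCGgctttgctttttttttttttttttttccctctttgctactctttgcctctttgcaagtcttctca
The Fzd5 stretch of 249 bases held 31 CG dinucleotides and was 76.3% G or C, whereas the Fzd1 stretch of 250 bases held 12 and was 51.2% G or C. The Fzd10 stretch of 263 bases held 12 and was 63.5% G or C. In promoter windows of 300 bases from RefSeq, which were at hand for 6 of the genes, the number of CG dinucleotides was 53 in Fzd9, 45 in Fzd10, 38 in Fzd5, 32 in Fzd4, 24 in Fzd7 and 16 in Fzd1, against a median of 7 over 32851 mouse promoters. These 6 windows held no match on either strand to CTTTGAT or CTTTGAA, the core letters read by TCF/LEF factors, which 3.73% and 5.14% of all promoter windows hold. Fzd2, Fzd3, Fzd6 and Fzd8 had no entry in the promoter table. Against the GENCODE starts, the Fzd10 window lay wholly downstream and those of Fzd1 and Fzd7 wholly upstream. Counts of CG in these windows, and in the stretches above, are therefore from unlike positions.

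The deleted genes did not follow the labels in every library. Counts scaled to library size (CPM) of Smarcc1 were between 247 and 269 in untreated C and between 245 and 299 in WT vehicle, and those of Smarcc2 between 654 and 834 over both. Most dcKO libraries had 128 to 140 CPM of Smarcc1 and 398 to 439 CPM of Smarcc2. The library labelled M replicate 2 had 245 and 670 CPM, the library labelled dcKO vehicle replicate 2 had 242 and 692, and the libraries labelled dcKO Wnt inhibitor replicates 1 and 2 had 214 and 644 and 252 and 695, respectively. Inhibitor replicate 4 lay between, with 173 and 586 CPM. Results are therefore given with all libraries and without these 4, a choice made after the data were seen and from Smarcc1 and Smarcc2 alone. In addition, each of the 7 untreated libraries had the highest correlation of its deviations from the group mean with the same-numbered vehicle library (r of 0.20 to 0.80 over 15220 genes, against -0.70 to 0.50 for other numbers), so that the RNA experiments may share samples, and a like result in both is not treated as a repeat. Total counts were about 11946700 to 28391000 reads in untreated and 12514400 to 26600600 in treated libraries. Labels do not say that replicates came from separate embryos or litters, and p-values then measure only the spread between these libraries.

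Compared per length, as CPM per kilobase of exon (RPKM), the receptor genes spanned a wide range in the control pallium. Fzd1, a receptor for canonical Wnt signals, was highest at 13.1 ± 0.898 RPKM (SD, n = 4) in untreated C and held 33.6% of the summed Frizzled level. Fzd2, at 6.35 ± 1.27 RPKM, Fzd3, a polarity and axon guidance receptor, at 5.74 ± 0.608, and Fzd7, a close relative of Fzd1 and Fzd2, at 4.75 ± 0.355, followed, with ranges that overlapped from each to the next. Fzd9, known from the hippocampal primordium, had 3.10 ± 0.378 RPKM, Fzd8 had 2.50 ± 0.415 and Fzd6, the other polarity receptor, had 1.96 ± 0.158, again with overlap between neighbours. The lowest were Fzd4, the receptor for Norrin on blood vessels, at 0.659 ± 0.034 RPKM, Fzd5, best known from the eye, at 0.462 ± 0.082, and Fzd10, found in the dorsal neural tube and hem, at 0.445 ± 0.214, and the ranges of Fzd5 and Fzd10 overlapped. Fzd1 and Fzd2 were first and second in each of the 5 groups. Fzd5 was ninth in untreated C but last in WT vehicle, at 0.328 ± 0.018 RPKM (n = 4), where its highest value lay below the lowest value of Fzd10. The counts behind the lowest genes were small, at 14 to 52 reads per library for Fzd10 over all groups and 29 to 96 for Fzd5 in the control groups.

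The summed level of the family was higher in both dcKO groups. It was 36.2 to 42.2 RPKM in untreated C and 45.6 to 51.5 in M, 41.5 to 45.4 in WT vehicle and 50.7 to 59.4 in dcKO vehicle, and it spread from 33.5 to 52.4 in the inhibitor libraries. The ranges of control and dcKO did not overlap in either experiment. The part of the sum held by Fzd1 was 38.2% in M and 36.8% in dcKO vehicle, against 33.6% and 32.2% in their controls, with a mean Fzd1 level of 18.4 RPKM in M and 19.7 in dcKO vehicle. This sum weights genes by their level and is given as a description.

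**Figure D1:**
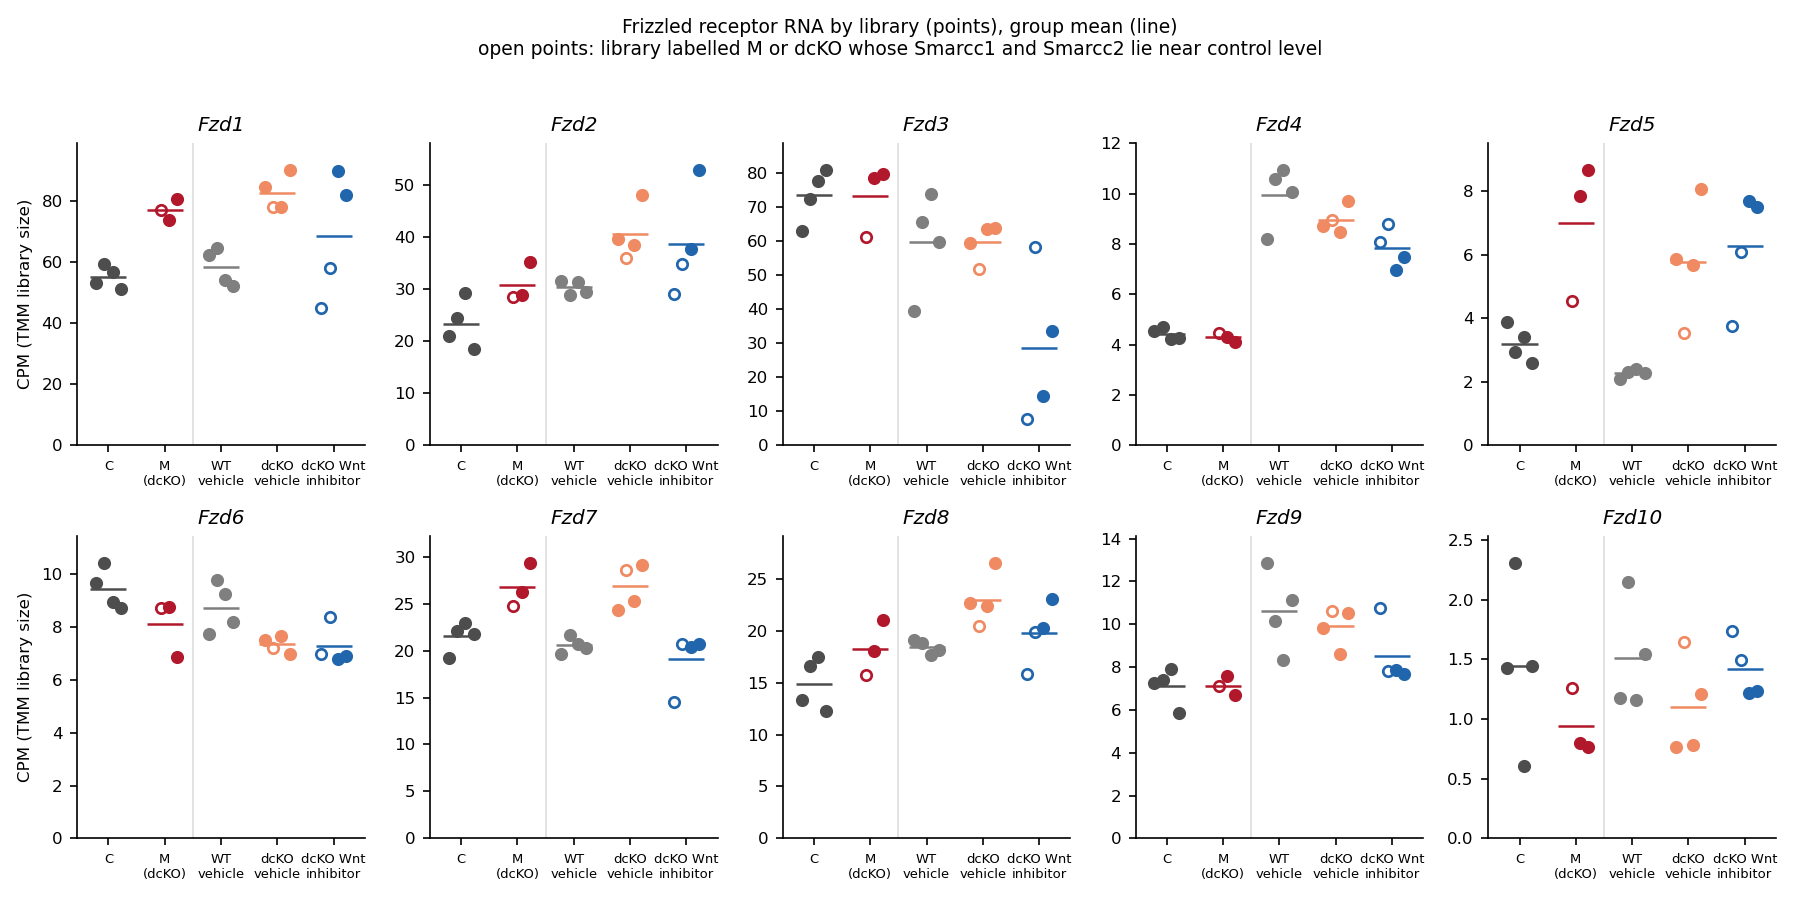
RNA level of the 10 Frizzled genes as CPM after TMM scaling (y axis, from 0, 1 panel per gene) in the 5 RNA groups (x axis), with 1 point per library and a line at the group mean; open points are the 4 libraries labelled M or dcKO whose Smarcc1 and Smarcc2 lie near control level. Fzd1, Fzd5 and Fzd7 lie higher in every M library than in any C library, and Fzd3 is at 7.59, 58.4, 14.6 and 33.6 CPM in the inhibitor libraries.

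In untreated embryos, Fzd1, Fzd5 and Fzd7 were higher in every dcKO (M) library than in any control. Fzd1 was at 53.1, 59.5, 56.9 and 51.1 CPM in C replicates 1 to 4 and at 77.0, 73.7 and 80.6 CPM in M replicates 2 to 4. Fzd5 was at 3.87, 2.92, 3.42 and 2.58 CPM in C and at 4.53, 7.84 and 8.64 CPM in M. Fzd7 was at 19.2, 22.1, 23.0 and 21.8 CPM in C and at 24.8, 26.2 and 29.3 CPM in M. The library labelled M replicate 2 was the lowest of its group for Fzd5 and Fzd7 and stood among the others for Fzd1. Groups did not overlap, in the upward direction, for these 3 of 10 genes and for 6.96% of the 15770 genes tested, and in either direction for 13.2%. The log2 fold changes were 0.48 for Fzd1 (SE 0.069, 1.40-fold), 1.15 for Fzd5 (SE 0.23, 2.22-fold) and 0.32 for Fzd7 (SE 0.093, 1.25-fold).

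None of the 10 genes passed an adjusted p of 0.05 in edgeR's quasi-likelihood test with all 7 libraries, where 0.00634% of genes did. The smallest adjusted p-values were 0.075 for Fzd1, 0.11 for Fzd5 and 0.17 for Fzd7. At an unadjusted p under 0.01, 3 of 10 were higher and 0 lower, against 2.66% higher of all genes and 5.46% in either direction, and at an unadjusted p under 0.05 the count was 4, with Fzd2 as the added gene, against 16% of all genes in either direction. DESeq2 called Fzd1 (adjusted p = 8.3e-06) and Fzd5 (adjusted p = 0.00087), 2 of 10 against 2.04% of the genes it tested. It was run without edgeR's filter on low counts, so its shares here and below are over the 26053 untreated and 31304 treated genes with a p-value. These include low-count genes that edgeR's filter left out, which lowers the shares. They also include any genes that DESeq2's own default filter on mean count left without an adjusted p, which could not be called. Without a filter on low counts, edgeR called the same 2 genes with all 7 libraries, against 0.591% of all genes. Without the library labelled M replicate 2, edgeR called Fzd1 (log2 fold change 0.48, adjusted p = 0.0024), Fzd5 (1.36, adjusted p = 0.00069) and Fzd7 (0.37, adjusted p = 0.032), which was 3 of 10 genes against 5.57% called higher and 12.4% called in all. The call of Fzd7 was made only in this fit, whereas those of Fzd1 and Fzd5 also differed with the tool and the filter.

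The other receptors differed less in untreated embryos. Fzd2 was at 18.4 to 29.2 CPM in C and 28.4 to 35.2 in M (log2 fold change 0.41, SE 0.15, adjusted p = 0.25, edgeR), and Fzd8, which is expressed in anterior neural progenitors, at 12.3 to 17.4 and 15.7 to 21.0 CPM (0.30, SE 0.15, adjusted p = 0.36, edgeR). Fzd3, Fzd4 and Fzd9 had log2 fold changes of -9.3e-06, -0.047 and 0.0042, with standard errors of 0.11, 0.13 and 0.14. Fzd6 was at 8.72 to 10.4 CPM in C and 6.87 to 8.75 in M (-0.22, SE 0.13). Fzd10 was at 0.60 to 2.30 CPM in C and 0.77 to 1.26 in M, a difference of -0.67 with an SE of 0.42 that rests on 15 to 52 reads per library. Over the family the median log2 fold change was 0.15, beside 0.0040 over all genes, with 6 genes above 0 and 4 below.

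In vehicle-treated embryos, the comparison of dcKO with WT asked the same of embryos that had received injections. Fzd1 was at 62.4, 64.7, 54.1 and 52.4 CPM in WT replicates 1 to 4 and at 84.6, 78.0, 78.2 and 90.1 CPM in dcKO. Fzd5 was at 2.10, 2.30, 2.40 and 2.29 CPM in WT and at 5.86, 3.52, 5.66 and 8.07 CPM in dcKO. Fzd7 was at 19.6, 21.6, 20.7 and 20.3 CPM in WT and at 24.3, 28.6, 25.3 and 29.1 CPM in dcKO. Every dcKO library was above every WT library for these 3 genes, and the same held for Fzd2 (28.9 to 31.5 CPM against 35.9 to 48.0) and Fzd8 (17.7 to 19.1 against 20.5 to 26.5). Fzd6 was the reverse, at 7.72 to 9.77 CPM in WT and 6.99 to 7.67 in dcKO. Groups therefore did not overlap for 5 of 10 genes upward and 1 downward, against 3.08% and 2.58% of the 16372 genes tested and 5.66% in all.

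With all 12 treated libraries in the fit, no Frizzled gene passed an adjusted p of 0.05 in edgeR, where 0.00611% of all genes did. Log2 fold changes were 1.35 for Fzd5 (SE 0.26, 2.54-fold, adjusted p = 0.22), 0.50 for Fzd1 (SE 0.18, adjusted p = 0.37), 0.42 for Fzd2 (SE 0.16, adjusted p = 0.40), 0.38 for Fzd7 (SE 0.12, adjusted p = 0.33) and 0.32 for Fzd8 (SE 0.12, adjusted p = 0.41). Fzd5 and Fzd7 were higher at an unadjusted p under 0.01 and no gene was lower, 2 of 10 against 1.56% of all genes higher and 2.85% in all. With a limit of 0.05 on the unadjusted p, 5 genes were higher and 0 lower, against 9.46% of all genes in either direction. DESeq2 called Fzd5 (adjusted p = 0.0032), 1 of 10 against 0.345% of its genes. Without the library labelled dcKO vehicle replicate 2, edgeR called Fzd5 (1.52, adjusted p = 0.0057), against 3.4% of all genes. Without the 3 treated libraries whose Smarcc1 and Smarcc2 lay near control level it called Fzd5 (1.52, adjusted p = 0.00051) and Fzd1 (0.53, adjusted p = 0.013), 2 of 10 against 2.47% called higher and 5.82% in all.

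The family's other members had smaller or less even differences in dcKO vehicle. Fzd3 was at 39.4, 65.6, 73.9 and 59.7 CPM in WT and at 59.4, 51.9, 63.4 and 63.8 CPM in dcKO (log2 fold change 0.0020, SE 0.43), with WT replicate 1 lowest and the groups overlapping. Fzd4 (-0.15, SE 0.13), Fzd9 (-0.11, SE 0.16) and Fzd10 (-0.47, SE 0.29) had ranges that overlapped between the groups, and Fzd6 had -0.25 with an SE of 0.13 (adjusted p = 0.57, edgeR). The median over the family was 0.16, beside -0.0031 over all genes. In bulk tissue, a higher share of cells that express a receptor and more RNA per cell cannot be told apart. The summed CPM of 6 cortical hem markers (Lmx1a, Wnt3a, Wnt2b, Rspo2, Rspo3, Bmp4) differed between these groups without overlap, at 39.7 to 43.2 in C and 54.2 to 59.1 in M, and at 30.8 to 42.9 in WT vehicle and 48.9 to 56.7 in dcKO vehicle. Its members did not all go one way, since 3 of the 5 tested had a log2 fold change above 0 and 2 below in M (-0.40 to 1.25), and 4 and 1 in dcKO vehicle (-0.42 to 1.32). Summed endothelial markers were at 157 to 188 CPM in C and 135 to 155 in M, without overlap, and at 154 to 188 in WT vehicle and 138 to 156 in dcKO vehicle, with overlap. Cortical neuron markers were at 3473 to 4180 CPM in C and 2940, 3162 and 4000 in M, and at 3882 to 4222 in WT vehicle and 3054 to 4147 in dcKO vehicle, and in both dcKO groups the highest value was that of the library labelled replicate 2. Summed radial glia markers overlapped between groups, at 1274 to 1373 CPM in C and 1362 to 1485 in M. They were at 1311 to 1452 in WT vehicle and 1344 to 1475 in dcKO vehicle. The 8 members went both ways, with log2 fold changes of -0.75 to 0.51 in M (7 above 0, 1 below). In dcKO vehicle these were -0.78 to 0.64 (5 above 0, 3 below). Without the library labelled M replicate 2, edgeR called 4 of the 8 higher and 1 lower, against 5.57% and 6.88% of all genes. The defining markers were detected throughout, with only Bmp4 at 0 in 1 WT vehicle library, and the part of these cells in the Frizzled differences was not tested.

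A direct test of whether the genotype difference itself differed between the experiments called none of the 10 genes at an adjusted p of 0.05, and 0% of all 16156 genes tested. At an unadjusted p under 0.05 it also had 0 of 10, against 0.501% of all genes, and DESeq2 had 0. The differences of the log2 fold changes (untreated minus vehicle) lay between -0.21 for Fzd5 (SE 0.38) and 0.10 for Fzd9 (SE 0.21). The test treats the experiments as independent. If they share samples, small differences would follow from that alone, and nothing is read from this absence of calls.

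**Figure D2:**
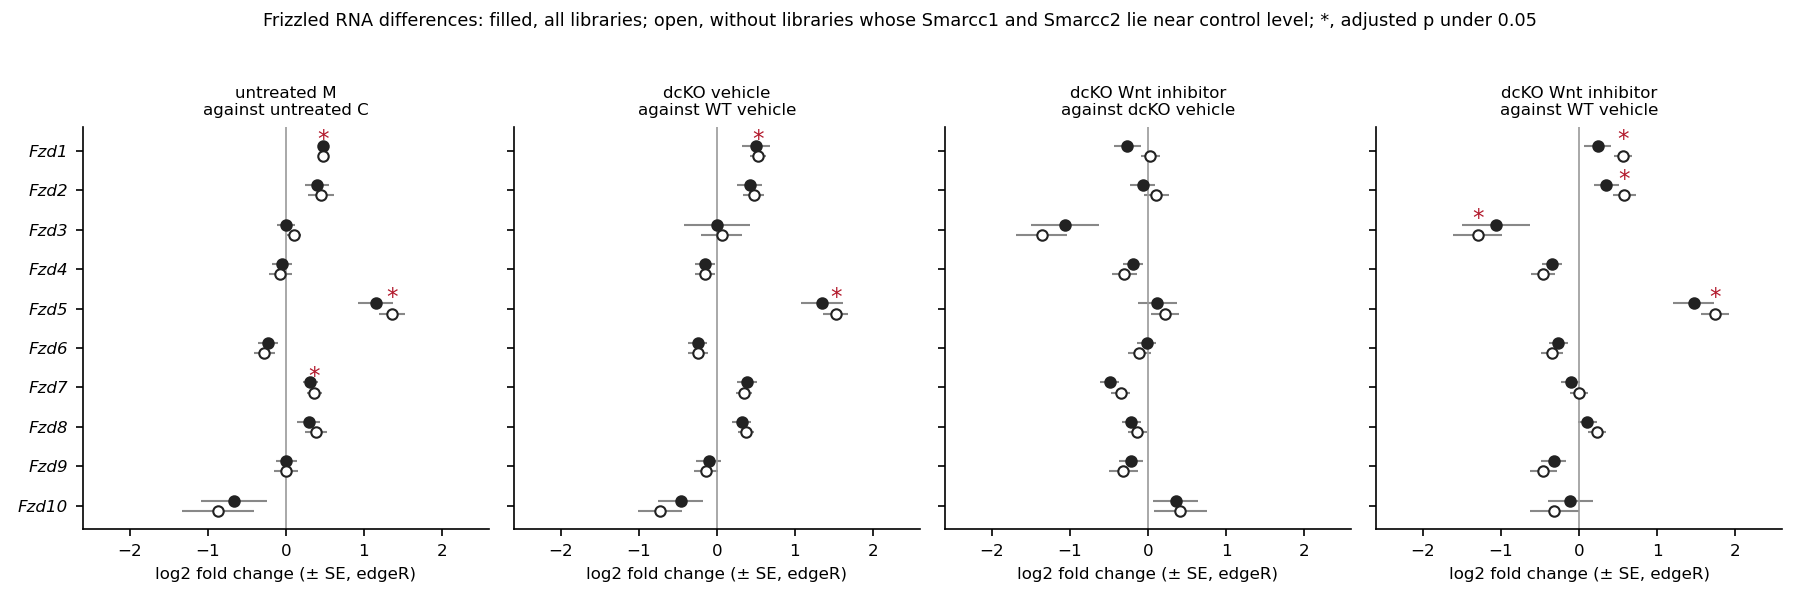
Log2 fold change with its standard error (x axis, edgeR) of the 10 Frizzled genes (y axis) in 4 comparisons (panels); filled points use all libraries, open points leave out those with near-control Smarcc1 and Smarcc2, and red stars mark an adjusted p under 0.05. Fzd5 lies to the right in both genotype panels, at 1.15 and 1.35, and in inhibitor against WT, at 1.47, and all stars belong to open points, drawn just above them.

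Inhibitor treatment of dcKO embryos was compared with vehicle to see which receptors moved when Wnt signalling was blocked, and Fzd7 had the smallest p of the family. It was at 14.5, 20.7, 20.4 and 20.7 CPM in inhibitor replicates 1 to 4, all below the lowest dcKO vehicle library (24.3 CPM). Replicates 2 to 4 lay within the WT vehicle range of 19.6 to 21.6 CPM, and replicate 1 lay below it. Groups did not overlap downward for 1 of 10 genes and for 4.03% of all genes, and 8.51% in either direction. The log2 fold change was -0.49 (SE 0.12, 1.41-fold lower, unadjusted p = 0.0014) with an adjusted p of 0.16 in edgeR, where 0 of 10 genes and 0.055% of all genes were called. At an unadjusted p under 0.01 it was the only Frizzled gene, against 2.2% of all genes lower and 4.65% in all, and at an unadjusted p under 0.05 Fzd3 joined it, 2 of 10 against 15.8%. DESeq2 called Fzd7 lower (adjusted p = 0.016), 1 of 10 against 0.47% called lower and 1.06% in all. Without the libraries of near-control Smarcc1 and Smarcc2 the log2 fold change was -0.35 (adjusted p = 0.16) and 0 of 10 genes were called, against 1.02% of all genes. Set against WT vehicle, Fzd7 in the inhibitor libraries had a log2 fold change of -0.11 (SE 0.12).

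Fzd1 differed widely among the inhibitor libraries. Fzd1 was at 45.0 and 58.1 CPM in the libraries labelled inhibitor replicates 1 and 2, below and within the WT vehicle range, and at 89.8 and 82.2 CPM in replicates 3 and 4, both within the dcKO vehicle range. Fzd5 was at 3.77, 6.08, 7.68 and 7.49 CPM in replicates 1 to 4, all within the dcKO vehicle range and lowest in replicates 1 and 2. Replicates 1 and 2 are those with 214 and 252 CPM of Smarcc1, and whether this accounts for the split was not tested. With all libraries, the log2 fold changes against dcKO vehicle were -0.27 for Fzd1 (SE 0.18) and 0.12 for Fzd5 (SE 0.25), and without the libraries of near-control Smarcc1 and Smarcc2 they were 0.030 (SE 0.12) and 0.22 (SE 0.18).

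Fzd3 had the widest spread of all members under the inhibitor. It was at 7.59, 58.4, 14.6 and 33.6 CPM in replicates 1 to 4, against 51.9 to 63.8 CPM in dcKO vehicle, so that 3 of the 4 libraries lay below every vehicle library of either genotype and replicate 2 lay among them. The log2 fold change was -1.06 (SE 0.43, adjusted p = 0.27, edgeR) against dcKO vehicle and -1.06 (SE 0.44, adjusted p = 0.21) against WT vehicle. Without inhibitor replicate 2 it was -1.67 in both, with adjusted p-values of 0.045 and 0.023, where 2.53% and 8.74% of all genes were called. Without the libraries of near-control Smarcc1 and Smarcc2 it was -1.36 (adjusted p = 0.075) and -1.30 (adjusted p = 0.035).

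Fzd3 has the longest transcript of the family, 12734 bases. Long transcripts as a class were low in inhibitor replicates 1, 3 and 4 and also in WT vehicle replicate 1. Among 11667 genes with at least 5 CPM, the tenth with the longest transcripts had a median log2 difference from the dcKO vehicle mean of -0.44, 0.046, -0.29 and -0.18 in inhibitor replicates 1 to 4, and the tenth with the shortest had 0.40, -0.033, 0.32 and 0.15. Fzd3 differed by -2.89, -0.024, -1.99 and -0.82 in these libraries, and within the longest class it ranked 5, 390, 10 and 13 from the lowest of 1167 genes. With an offset for the transcript length trend, its log2 fold change was -0.88 (SE 0.35, adjusted p = 0.33, edgeR) against dcKO vehicle and -0.80 (SE 0.35, adjusted p = 0.30) against WT vehicle. The 6 choroid plexus markers were at 846, 163, 484 and 11.1 summed CPM in replicates 1 to 4, against 6.29 to 128 CPM over all other treated libraries, so that they were high in replicates 1, 2 and 3 and not in replicate 4. The part of either in the level of Fzd3 was not tested.

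**Figure D3:**
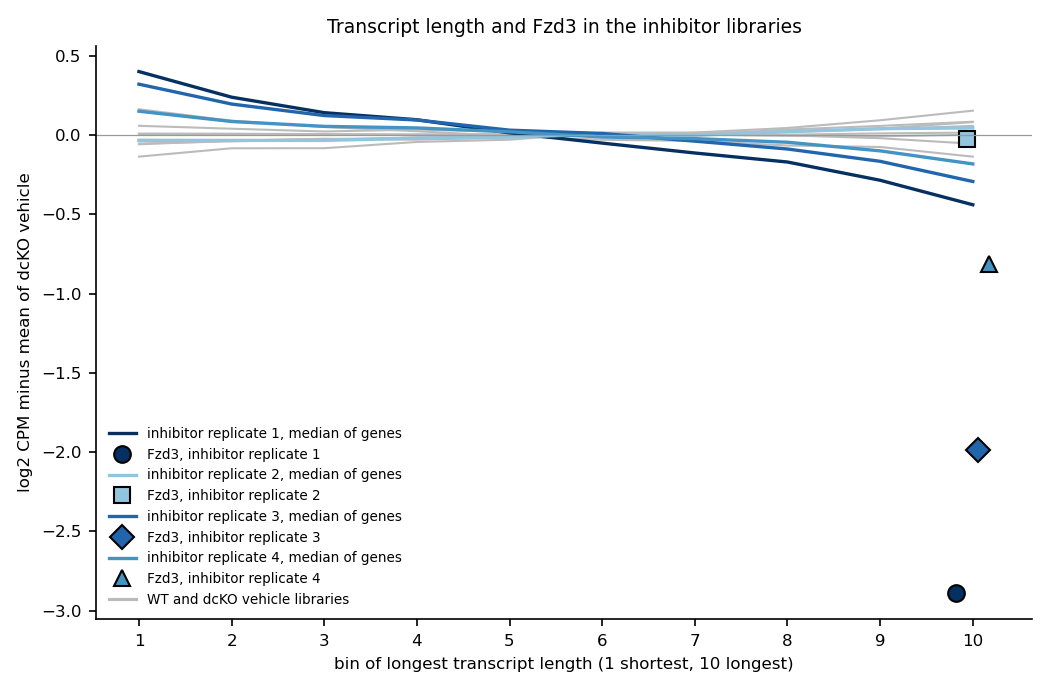
Log2 difference from the dcKO vehicle mean (y axis) against bins of longest transcript length (x axis, 10 bins from short to long); lines are medians over genes for each inhibitor library (blue) and the vehicle libraries (grey), and symbols are Fzd3. The medians of inhibitor replicates 1, 3 and 4 fall to -0.44, -0.29 and -0.18 in the longest bin, and Fzd3 lies further down at -2.89, -1.99 and -0.82. The median of WT vehicle replicate 1 falls to -0.14 in this bin.

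Against WT vehicle, the inhibitor-treated dcKO libraries still had the higher Fzd5. All 4 libraries (3.77 to 7.68 CPM) were above all WT vehicle libraries (2.10 to 2.40 CPM), the only such gene of the 10 in either direction, against 3.48% of all genes upward, 4.02% downward and 7.49% in all. The log2 fold change was 1.47 (SE 0.26, 2.77-fold) with an adjusted p of 0.053 in edgeR, where 0 of 10 genes and 0.0977% of all genes were called. Fzd5 was the only member at an unadjusted p under 0.01, against 3.01% of all genes higher and 6.72% in all, and at an unadjusted p under 0.05 there were 4 members, with Fzd2 higher and Fzd3 and Fzd4 lower, against 19.8% of all genes. DESeq2 called Fzd5 (adjusted p = 0.00014), 1 of 10 against 1.01% called higher. In edgeR it was also the only member called without a filter on low counts (against 0.185% of all genes), with the replicate number as a block (against 1.15%) and without WT vehicle replicate 1 (against 1.12%). Without the libraries of near-control Smarcc1 and Smarcc2, edgeR called 4 of 10 genes, namely Fzd5 (1.74, adjusted p = 0.0011), Fzd1 (0.56, adjusted p = 0.020) and Fzd2 (0.58, adjusted p = 0.040) higher and Fzd3 lower, against 7.38% of all genes. This leaves 2 inhibitor libraries. Any pair of the comparisons of treated embryos shares a group of libraries, so their values are given side by side and not as repeats. The dcKO vehicle libraries enter with opposite sign in the comparisons with WT vehicle and with the inhibitor. In edgeR with the filter and all libraries, no Frizzled gene was called in a treated comparison, so none qualified for a search for genes of like pattern.

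For Fzd4, Fzd6, Fzd8, Fzd9 and Fzd10, the ranges with the inhibitor overlapped those of dcKO vehicle. Their ranges in the inhibitor libraries were 6.95 to 8.78, 6.80 to 8.38, 15.8 to 23.0, 7.65 to 10.8 and 1.21 to 1.73 CPM, and in dcKO vehicle 8.45 to 9.70, 6.99 to 7.67, 20.5 to 26.5, 8.63 to 10.6 and 0.77 to 1.65 CPM. At Fzd9, inhibitor replicates 2 to 4 (7.81, 7.87 and 7.65 CPM) lay below every dcKO vehicle library, and replicate 1 (10.8 CPM) lay above them all. The log2 fold changes against dcKO vehicle ran from -0.22 for Fzd8 (SE 0.12) and Fzd9 (SE 0.16) to 0.35 for Fzd10 (SE 0.29). Fzd2 had -0.069 (SE 0.16), with 29.1, 34.7, 37.7 and 52.7 CPM in the inhibitor libraries. Over the family the median was -0.21 against dcKO vehicle and -0.11 against WT vehicle, beside 0.011 and 0.0061 over all genes.

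The other parts of the Wnt pathway were read from 8 lists of 73 genes (co-receptors, R-spondin axis, ligands, Norrin complex, secreted antagonists, cytoplasmic transducers, polarity partners, and TCF factors with feedback targets), of which 61 were tested. With all libraries, 0 passed an adjusted p of 0.05 in edgeR in either genotype comparison. At an unadjusted p under 0.01, 8 were higher and 4 lower in M, against 2.66% and 2.8% of all genes, and 9 higher and 4 lower in dcKO vehicle, against 1.56% and 1.29%. The 3 with the smallest p in untreated embryos were Dkk1, a secreted antagonist that binds LRP5 and LRP6 (log2 fold change 3.67, from 1 to 4 reads in C to 14 to 40 in M), Sfrp1, which binds Wnt through a Frizzled-like domain (0.75), and the cell cycle gene Ccnd1 (0.51). In dcKO vehicle they were Sfrp5 (-1.41), the hem ligand Wnt2b (1.32) and Dkk1 (2.35). Under the inhibitor, Sfrp5 was higher than in dcKO vehicle (2.10, adjusted p = 0.019), the only one called, followed by the polarity receptor Celsr1 (-0.48) and Wnt2b (-0.996), which did not pass. Against WT vehicle, 0 were called, and Prickle2 (-0.52), Dkk1 (2.59) and Apc (-0.50) had the smallest p. Among the 6 co-receptors and other Wnt receptors, none had an unadjusted p under 0.01 in these comparisons, and log2 fold changes of the genotype comparisons lay between -0.41 and 0.13. Without the libraries of near-control Smarcc1 and Smarcc2, 13 of the 61 were called higher and 8 lower in M, against 5.57% and 6.88% of all genes, and 11 higher and 7 lower in dcKO vehicle, against 2.47% and 3.34%.

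H3K27me3 covered the starts of some Frizzled genes and not of others. Of the 22220 regions where 2 or more libraries had a peak, 6 lay within 2000 bp of a start of a Frizzled gene, 1 each at Fzd4, Fzd5, Fzd6, Fzd7, Fzd9 and Fzd10. That was 6 of 10 genes, against 25.6% of 21951 protein-coding genes, and with a window of 5000 bp it stayed at 6, against 30.9%. Fzd10 and Fzd6 had a peak in this window in 7 of the 8 libraries, Fzd4, Fzd5 and Fzd7 in 6 and Fzd9 in 4. Fzd1 had narrow, weak peaks in 2 libraries (3.09- and 3.08-fold over input), Fzd2 a peak in K replicate 4 (3.74-fold), Fzd8 a peak beyond the window in K replicate 4 (3.81-fold), and Fzd3 none. The number of Frizzled genes marked in a single library was 6, 6, 2 and 5 in C replicates 1 to 4 and 6, 0, 6 and 8 in K replicates 1 to 4. The share of protein-coding genes marked was 22.3%, 18.2%, 7.25% and 14.9% in C and 20.4%, 6.13%, 15.5% and 36.5% in K.

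The shape of the mark differed between the genes. At Fzd10 (chr5:128600844-128604093, plus strand, 1 exon), peaks reached far beyond the gene in C replicates 2 and 4 and K replicates 3 and 4, at 16495, 16393, 16470 and 12883 bp, and were 4651, 436 and 2801 bp in C replicates 1 and 3 and K replicate 1. At Fzd5 (chr1:64730558-64737751), peaks of 3268 to 8791 bp ran from upstream of the start into the gene in 6 libraries, and K replicate 2 had only a 507 bp peak inside the gene. At Fzd6 (chr15:39006034-39038188), the peaks were short, 452 to 1733 bp, and lay around the start. They held the highest enrichment of the family, 19.1-fold in K replicate 1, 16.3-fold in C replicate 1 and 11.8-fold in K replicate 4, above 99.2%, 99.4% and 99.7% of the peaks of their libraries. At Fzd7 (chr1:59482424-59486955) and Fzd4 (chr7:89404355-89413134), peaks of 457 to 4262 bp were at 3.34- to 7.70-fold and in some libraries lay on either side of the start. At Fzd9 (chr5:135248938-135251230), peaks began at least 150 bp downstream of the start. They lay inside the gene in 3 libraries, and the 2325 bp peak of K replicate 4 ran beyond its 3′ end.

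**Figure D4:**
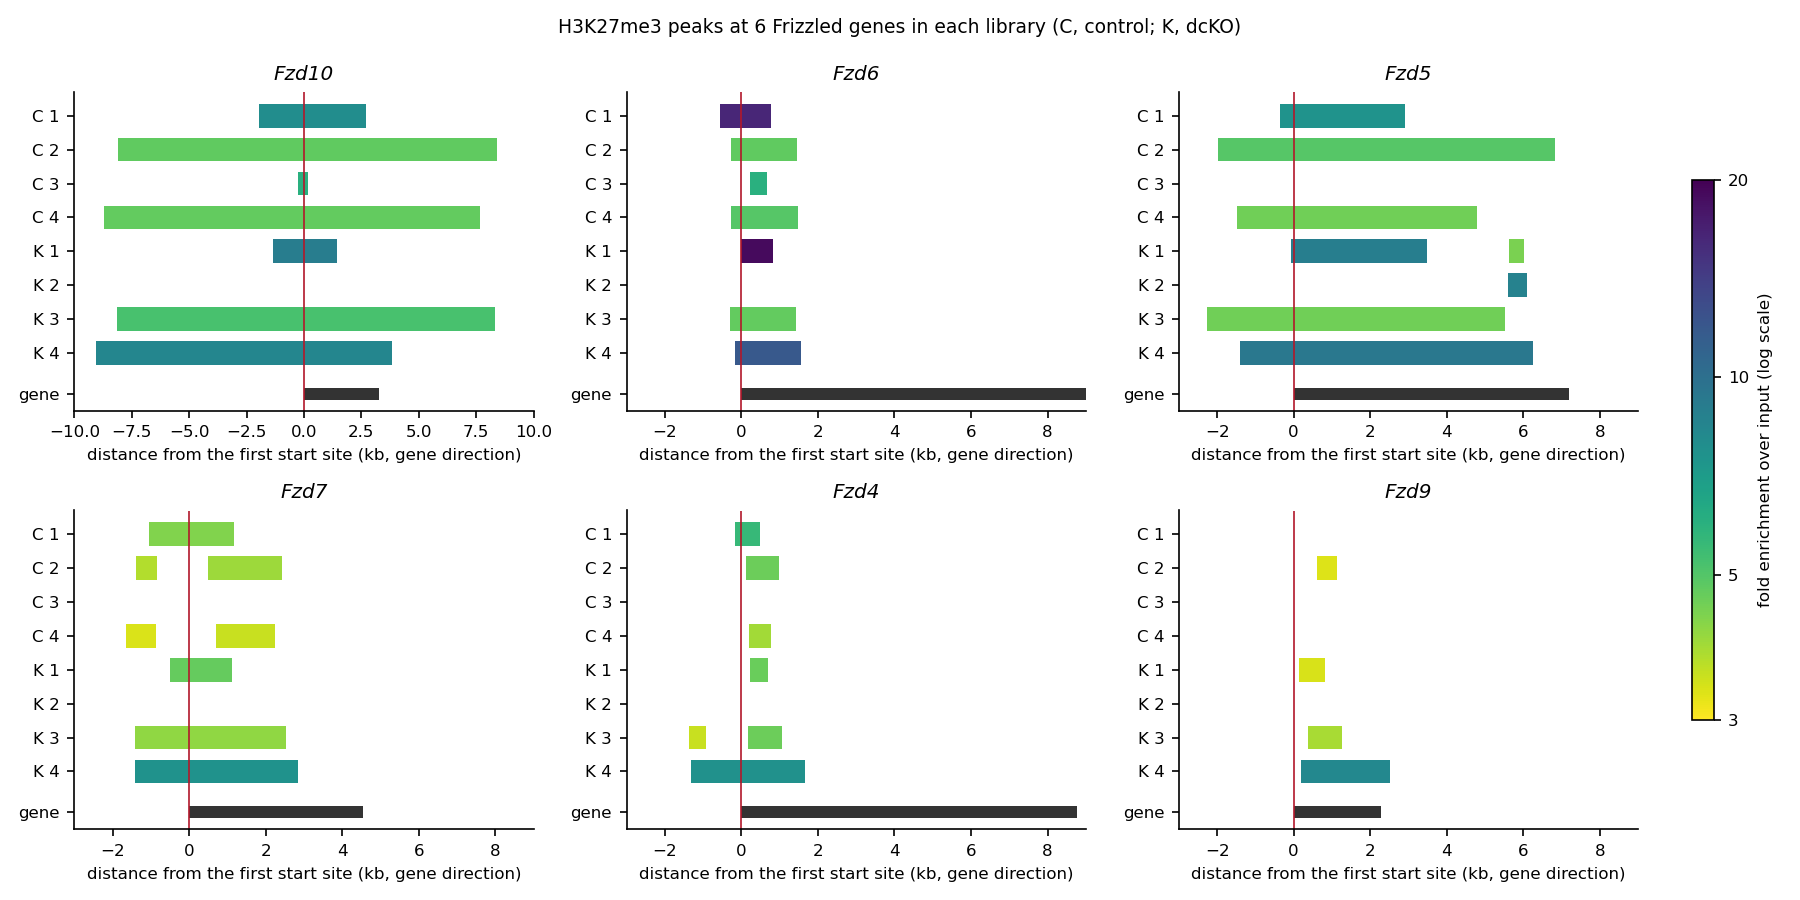
H3K27me3 peaks (bars, coloured by fold enrichment over input on a log scale) at 6 Frizzled genes in the 4 C and 4 K libraries (rows), by distance from the first start site in the direction of the gene (x axis, kb); the dark bar is the gene. Peaks span up to 16495 bp at Fzd10 and at most 1733 bp at Fzd6, and K replicate 2 has no peak within 2000 bp of a start.

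No difference in H3K27me3 between K and C was detectable at these regions. Highest fold enrichments at Fzd5 were 7.56, 4.96, 1 (no peak) and 4.52 in C replicates 1 to 4 and 8.96, 8.69, 4.53 and 9.34 in K, and the groups overlapped. At Fzd9 they were 1, 3.33, 1 and 1 in C and 3.37, 1, 3.84 and 8.27 in K. At Fzd6 they were 16.3, 4.78, 6.00 and 4.95 in C and 19.1, 1, 4.72 and 11.8 in K, and at Fzd10 7.97, 4.78, 5.99 and 4.74 in C and 9.04, 4.14, 5.20 and 8.40 in K. The 4.14 of K replicate 2 belongs to a peak elsewhere in the wide merged region, since this library had none at Fzd10 itself. The log2 differences in limma were 1.07 at Fzd5 (SE 0.69, unadjusted p = 0.12), 1.25 at Fzd9 (SE 0.90, unadjusted p = 0.16), 0.33 at Fzd7 (SE 0.89), 0.17 at Fzd4 (SE 0.87), 0.15 at Fzd10 (SE 0.64) and -0.28 at Fzd6 (SE 0.63). With only the peaks at the gene or its window, a choice made after the data were seen, the difference at Fzd10 was -0.36 (SE 0.71). Single libraries moved these values. At Fzd5 the difference was 0.45 without C replicate 3 (unadjusted p = 0.48) and 1.42 without C replicate 1 (unadjusted p = 0.032), and at Fzd9 it was 0.80 without K replicate 4 and 1.81 without K replicate 2. At Fzd4, Fzd6, Fzd7 and Fzd10 the sign turned when 1 library was left out. Of all 22220 regions, 0 passed an adjusted p of 0.05 in limma (0%), 2 had an unadjusted p under 0.01 (0.009%) and 49 one under 0.05. None of the latter was at a Frizzled gene. Libraries kept 12.3% to 66.5% of their tags after duplicate removal, and with this class as a block the log2 difference was 1.07 at Fzd5 (unadjusted p = 0.13) and 1.25 at Fzd9 (unadjusted p = 0.077).

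RNA level and mark are set side by side here as a description. Fzd1, Fzd2 and Fzd3, the 3 highest by RPKM in untreated C, and Fzd8, the sixth, were without an H3K27me3 region at the start. Fzd4, Fzd5 and Fzd10, the 3 lowest, each had one in 6 or 7 libraries. Fzd7 and Fzd9, at 4.75 and 3.10 RPKM, were marked in 6 and 4 libraries although their level lay above that of Fzd8 (2.50 RPKM), and Fzd6, marked in 7, had 1.96 RPKM, below all 4 genes without a region. Whether mark and RNA came from the same cells cannot be told from whole tissue.

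**Figure D5:**
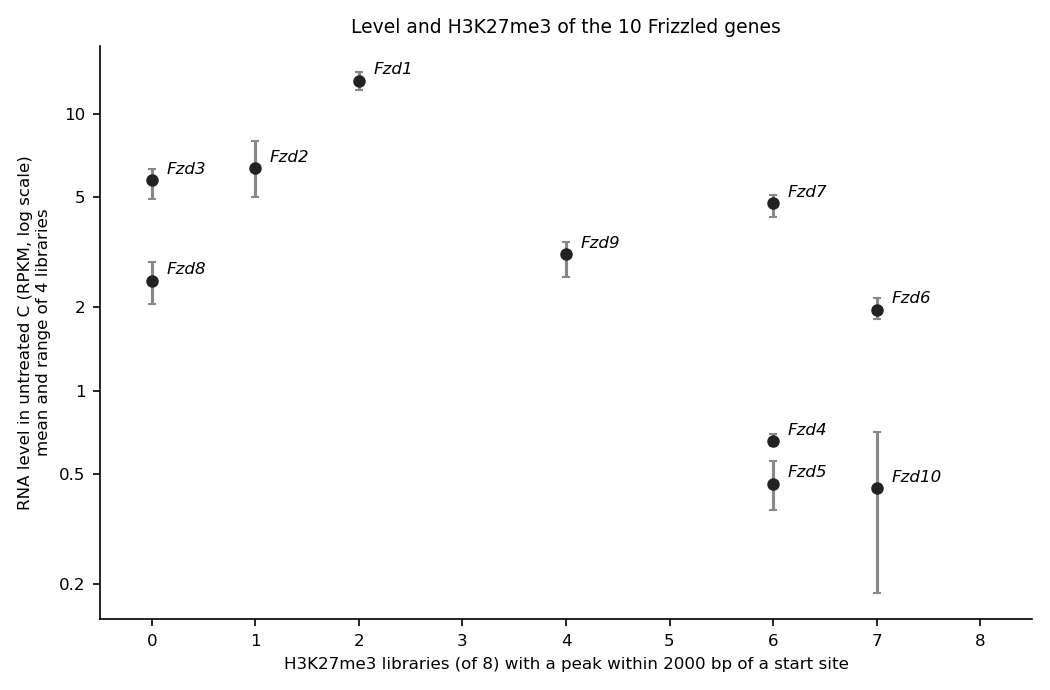
RNA level in untreated C (y axis, RPKM on a log scale, mean and range of 4 libraries) against the number of H3K27me3 libraries with a peak within 2000 bp of a start (x axis, of 8) for each Frizzled gene. Fzd1 at 13.1 RPKM has 2 libraries and Fzd10 at 0.445 RPKM has 7, with Fzd7 at 4.75 RPKM and 6 libraries and Fzd9 at 3.10 RPKM and 4 libraries above Fzd8 at 2.50 RPKM, which has none.

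Annotation bears on a few of these values. In GENCODE M21, a predicted transcript on the opposite strand (Gm38058) shares 1512 bp with the 5′ part of Fzd5, and a divergent non-coding RNA (Gm26704) shares 152 bp with Fzd6. Gm38058 was listed in the treated tables only, with 0 to 7 reads per library, and Gm26704 had 0 to 2 reads. Whether counting used the strand is not stated, so reads from these pairs cannot be told apart. The few reads on the partners do not show how reads in the shared parts were assigned. The effect of the overlap on the 29 to 188 reads of Fzd5 in treated libraries was not tested. The level of Fzd4 was 0.659 RPKM in untreated C and 1.48 ± 0.182 RPKM (SD, n = 4) in WT vehicle, tables that were normalized separately and list different genes. With raw library sizes and no TMM scaling, it was 0.621 to 0.701 RPKM in untreated C and 1.22 to 1.57 in WT vehicle. The cause of this gap was not tested.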

How the data were processed

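RNA-seq of 19 libraries and H3K27me3 ChIP-seq of 8 libraries were used. The authors aligned RNA reads to mm10 with STAR and deposited raw read counts per gene from featureCounts, listing 38360 gene IDs in untreated and 48709 in treated tables. The annotation release and strand setting are not given in the sources used here. The authors called broad H3K27me3 peaks per library with MACS2 (version 2.1.0.20140616) with a q limit of 0.1, using the genotype's own pooled input. The deposited peak files give pileup as a signal, fold enrichment as a ratio over input, and q-values as −log10.

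From the counts, edgeR 4.0.16 (R 4.3.3) was fitted over all genes with TMM scaling, filterByExpr and the robust quasi-likelihood test. Untreated libraries were fitted alone and the 12 treated libraries together, with Benjamini-Hochberg adjustment over all tested genes and a limit of 0.05. CPM use TMM library sizes, and RPKM use the union of GENCODE M21 exons. Peaks overlapping by 1 bp were merged over libraries, and regions where 2 or more libraries had a peak were tested with limma 3.58.1 on the log2 of the highest fold enrichment, set to 1 where there was no peak. A start site window of 2000 bp was used. Peak values carry no read depth, and no interval is given for them. DESeq2 1.42.0 with shrunken fold changes, RLE scaling, no filter, the replicate number as a block, the 2 groups alone and leaving out each library were alternatives. An offset for transcript length, leaving out libraries against their label and valuing regions only by peaks at the gene or its window were added after the data were seen. Tables and figures used Python 3.11.15, pandas 2.3.3, numpy 2.4.6 and matplotlib 3.10.9.

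The fits were tested on simulated data. Of 200 genes changed by 1 on the log2 scale, 173 were recovered in the untreated design (15722 genes), with 24 false calls. In the vehicle comparison (16366 genes) 141 were recovered, with 8 false calls. The 24 false calls were a larger share of the calls than the adjusted p limit aims for. With all libraries, the real fits did not call Fzd5 at log2 fold changes of 1.15 (M) and 1.35 (dcKO vehicle). These fits called 1 of 15770 and 1 of 16372 genes. The RNA recovery therefore does not show how well a change of this size would be found in these libraries. For H3K27me3, 197 of 200 regions changed by 2 were recovered with 12 false calls among 22220 regions. This simulation used normal noise of the same size in all regions and no missing peaks. Its noise was smaller than the spread at the Frizzled regions, where the SE was 0.63 to 0.90. The recovery therefore does not show how well a difference at those regions would be found. Depth was about 11946700 to 28391000 counted reads per library. Pairs of replicates differed by more than sampling noise, with a chi-square per gene of 6.87 to 95.4, so none was counted as a duplicate. All 10 Frizzled genes are named. Of other pathway genes, those called in a comparison are named, or the 3 with the smallest p. Genes of like pattern were to be named for each Frizzled gene called in a treated comparison. Members and lists were chosen with earlier results of these data known.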

Additional observations from a re-analysis of the deposited data

Results flagged for a closer look

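A library far from the other 3 of its group was found in 6 of the 52 groups of Frizzled values tested (40 groups of CPM and 12 of H3K27me3 enrichment). Chance would give such a library in about 1 of 20 groups if values were independent and normal. These groups share libraries, and H3K27me3 values were set to 1 where there was no peak. The 6 of 52 is therefore not compared with that rate. Among the RNA values, all 3 were inhibitor libraries. Fzd6 was at 8.38 CPM in inhibitor replicate 2, Fzd7 at 14.5 CPM in inhibitor replicate 1 and Fzd9 at 10.8 CPM in inhibitor replicate 1. The gap to the nearest other library took 0.877, 0.955 and 0.929 of the range of the group, respectively. Inhibitor replicate 1 is the library with the lowest Fzd3 and Fzd1, the highest choroid plexus marker sum and near-control Smarcc1 and Smarcc2. The part of these in its Fzd7 and Fzd9 values was not tested.

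Among the H3K27me3 values, the Fzd5 region was at 4.53-fold in K replicate 3, below the other K libraries, which had 8.69- to 9.34-fold. The Fzd6 region was at 16.3-fold in C replicate 1, against 4.78- to 6.00-fold in the other C libraries. The Fzd9 region was at 3.33-fold in C replicate 2, the only C library with a peak there.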

How the results depend on the processing

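With all libraries, 0 of 10 Frizzled genes passed in each RNA comparison. The count was 3, 2, 1 and 1 at an unadjusted p under 0.01 and 2, 1, 1 and 1 with DESeq2 (M against C, dcKO against WT vehicle, inhibitor against dcKO vehicle, inhibitor against WT vehicle). Without a filter it was 2 in M against C and 1 in inhibitor against WT. Without the libraries of near-control Smarcc1 and Smarcc2 it was 2 in dcKO against WT vehicle and 4 in inhibitor against WT. Leaving out 1 library in turn gave 0 to 3 (3 without M replicate 2), 0 to 1 (1 without dcKO vehicle replicate 2), 0 to 1 (1 without inhibitor replicate 2) and 0 to 2 (1 without WT vehicle replicate 1, 2 without inhibitor replicate 2). The cause was not tested. With the replicate number as a block, the count was 1 in inhibitor against WT (Fzd5) and 0 in the other RNA comparisons and for H3K27me3. Correlations of same-numbered deviations were -0.31 to -0.033 over 3 untreated and -0.18 to 0.40 over 12 treated pairs. For other numbers they were -0.15 to 0.23 and -0.37 to 0.24, so numbers did not pair the libraries throughout. The highest treated values, 0.40 and 0.38, were same-numbered pairs of WT vehicle replicate 1 with inhibitor and dcKO vehicle replicate 1. Neighbours in the level order with separate ranges in the inhibitor group numbered 3, and 4 to 5 when 1 library was left out.

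Some small log2 fold changes turned sign. In M against C, Fzd3 was 1.1e-04 with RLE, 0.093 with the length offset and -0.068 to 0.11 when leaving out 1 library, and Fzd9 was -0.019 with the offset and -0.076 to 0.063 when leaving out 1. Fzd3 was -0.15 to 0.12 in dcKO against WT vehicle when leaving out 1. In inhibitor against dcKO vehicle, Fzd1 and Fzd2 were 0.030 and 0.11 without the near-control libraries and Fzd6 was 0.021 with the offset, and leaving out 1 gave -0.26 to 0.045 for Fzd2, -0.055 to 0.32 for Fzd5 and -0.092 to 0.013 for Fzd6. Against WT vehicle it gave -0.15 to 0.0021 for Fzd7 and -0.22 to 0.11 for Fzd10. For H3K27me3 in K against C, pileup gave 0.0099 at Fzd6 and -0.14 at Fzd10, and only the peaks at the gene or its window gave -0.36 at Fzd10. Leaving out 1 library gave -0.38 to 0.79 at Fzd4, -0.86 to 0.56 at Fzd6, -0.17 to 0.92 at Fzd7 and -0.021 to 0.36 at Fzd10. Under all other alternatives, 120 counts and levels stayed within 1.5 times, and 611 log2 fold changes and H3K27me3 differences kept their direction and side of the threshold while 23 passed it newly. For counts of called genes or regions, which were 0 with all libraries, staying means 0 again. Likewise, keeping the side of the threshold means that the gene or region was still not called. Most of these fits share nearly all libraries, so the totals do not measure how robust the results are. Read counts of 14 to 52 limit Fzd10.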
